A study of Mus musculus with 8 samples.

Results

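Regions of open chromatin that were listed more often without than with added interleukin 2 (IL-2) were described in mouse CD4 T cells. Chromatin was mapped by ATAC-seq, in which a transposase cuts accessible DNA, and the authors deposited 1 list of peaks for each of 8 libraries. Peaks of all lists that shared at least 1 bp were joined into 175276 union regions. In each library the 65811 peaks of highest −log10 p were kept, which is the length of the shortest list, so that every library entered with the same number of peaks (an equal-number list). A region counted as weaker with IL-2 when at least 3 of the 4 libraries without IL-2 listed it and at most 1 of the 4 libraries with IL-2 did. This rule took 2917 of the 95899 regions found in any equal-number list, or 3.04%. Because the rule reads the IL-2 contrast of these same lists, that contrast is given below as a description, with no test, and "weaker" refers to a place in a ranked list and not to a measured signal.

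All libraries came from naive CD4 T cells sorted from spleen, activated with antibodies to CD3 (0.25 µg/mL) and CD28 (1 µg/mL) in the presence of 20 ng/mL TGF-β, and harvested at 48 h with 90000 cells per sample. There were 4 groups of 2 libraries: Tet1/3 cDKO cells with 100 U of IL-2, control cells with 100 U of IL-2, Tet1/3 cDKO cells with TGF-β only, and control cells with TGF-β only. The controls are labelled WT. The cDKO cells lack Tet1 and Tet3, and the Cre driver, the deleted exons, the age of the mice and which animals gave which library are not stated by the labels. Even the cells "without IL-2" had been stimulated, and activated CD4 T cells make IL-2 of their own, so the contrast is between added IL-2 and none added.

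IL-2 binds a receptor built from CD25 (Il2ra), CD122 (Il2rb) and the common gamma chain, and signals through the kinases JAK1 and JAK3 to the transcription factor STAT5. Together with TGF-β, which signals through SMAD proteins, it drives activated CD4 T cells towards induced regulatory T cells that express Foxp3. IL-2 is also known to hold back the follicular helper and Th17 fates, partly through genes such as Bcl6, Cxcr5 and Il6ra. TET1 and TET3 are enzymes that oxidise methylated cytosine in DNA, a step towards its removal.

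Few of these regions lay on promoters, and those that did held fewer CpG, the dinucleotide at which DNA is methylated, than the promoters under other listed regions. RefSeq promoter windows of build GRCm38.p6, each running from 250 bases before to 50 bases after a gene start, were overlapped by 37 of the 2917 regions (1.27%), against 5.02% of the regions stronger with IL-2, 11.8% of all listed regions and 23.3% of regions listed in all 8 libraries. The 37 regions lay on 40 windows, 21 of them of protein-coding genes. Protein-coding genes gave 122 of the 150 windows under regions stronger with IL-2 and 12290 of the 14628 under all listed regions. The part of gene type in the CpG counts was not tested, and windows under regions listed in 3 to 5 libraries were not counted. The members' median window held 5 CpG, against 21 CpG under regions stronger with IL-2 and 21 CpG under all listed regions. All 32851 windows of the table, listed or not, had a median of 7 CpG. At least 10 CpG were present in 32.5% of the members' windows, in 82.1% of the windows under all listed regions and in 43.5% of all windows. A few sequences with CpG in capitals show this: Nlrc4, which encodes an inflammasome sensor and was the protein-coding promoter of best rank; the lncRNA gene Gm34819, of next best rank; the lncRNA gene Gm39321 and Cd53, a tetraspanin of leukocytes, whose regions were the only promoter regions listed in all 4 libraries without IL-2 and in none with IL-2; and Cd300lf, an inhibitory myeloid receptor. The promoter of Sel1l, a component of protein quality control in the endoplasmic reticulum, stands beside them as a window whose region ranked within the first 71 peaks of all 8 libraries. Each is the stretch shared by the region and the promoter window, 5′ to 3′ on the gene's strand. Cd300lf and Sel1l were chosen after their values were seen.
Nlrc4 (chr17:74459128-74459358, minus strand): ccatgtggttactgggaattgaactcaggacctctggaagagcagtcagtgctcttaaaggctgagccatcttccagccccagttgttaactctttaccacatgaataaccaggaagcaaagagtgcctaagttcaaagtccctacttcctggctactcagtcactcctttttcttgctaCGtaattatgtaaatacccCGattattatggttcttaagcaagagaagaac
Gm34819 (chr14:71620257-71620513, plus strand): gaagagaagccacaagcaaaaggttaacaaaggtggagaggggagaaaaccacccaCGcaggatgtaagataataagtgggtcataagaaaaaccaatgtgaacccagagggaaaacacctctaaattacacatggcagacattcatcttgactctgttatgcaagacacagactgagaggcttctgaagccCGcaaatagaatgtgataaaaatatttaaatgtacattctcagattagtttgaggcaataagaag
Gm39321 (chr9:42141874-42142130, plus strand): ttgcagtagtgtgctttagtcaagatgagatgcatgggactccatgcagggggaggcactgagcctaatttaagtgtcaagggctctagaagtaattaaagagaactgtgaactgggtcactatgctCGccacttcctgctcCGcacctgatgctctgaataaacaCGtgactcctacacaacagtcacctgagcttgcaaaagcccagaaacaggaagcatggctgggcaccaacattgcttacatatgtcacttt
Cd53 (chr3:106790100-106790355, minus strand): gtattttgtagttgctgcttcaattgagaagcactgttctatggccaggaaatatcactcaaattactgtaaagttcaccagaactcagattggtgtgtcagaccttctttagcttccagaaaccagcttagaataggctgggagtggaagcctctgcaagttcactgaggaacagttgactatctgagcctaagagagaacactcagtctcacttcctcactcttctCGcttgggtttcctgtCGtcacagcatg
Cd300lf (chr11:115133943-115134066, minus strand): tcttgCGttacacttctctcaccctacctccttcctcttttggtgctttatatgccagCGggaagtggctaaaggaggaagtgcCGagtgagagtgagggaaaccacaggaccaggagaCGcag
Sel1l (chr12:91849108-91849407, minus strand): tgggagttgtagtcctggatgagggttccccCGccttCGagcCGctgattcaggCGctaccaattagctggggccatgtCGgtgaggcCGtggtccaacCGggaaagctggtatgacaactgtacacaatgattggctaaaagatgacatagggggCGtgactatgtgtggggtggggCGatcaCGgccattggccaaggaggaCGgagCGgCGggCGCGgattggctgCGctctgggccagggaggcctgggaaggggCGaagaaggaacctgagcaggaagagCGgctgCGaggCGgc
The whole 300-base windows held 2 CpG at Nlrc4, 4 at Gm34819, 5 at Gm39321, 4 at Cd53, 6 at Cd300lf and 20 at Sel1l.

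The lettering of 6 short motifs was counted in the whole promoter windows on both strands. TGTGGT, the core read by RUNX factors, stood in 12 of the 40 members' windows (30.0%), against 12.6% of windows under all listed regions and 16.8% of all 32851 windows of the table. At Nlrc4 it is the tgtggt at base 4 of the printed stretch, with the complementary accaca at base 97. In other windows some of the RUNX matches lay outside the stretch that the region covers. The ETS motif CCGGAAG, whose letters contain a CpG, was in 1 window (2.5%), against 16.9% of windows under all listed regions and 8.86% of all windows. The AP-1 motif TGANTCA was in 3 windows (7.5%), against 5.35% of windows under all listed regions and 7.81% of all windows. Of these the windows of Gm41301 and Gm34820 overlap and hold the same site. The GATA motif AGATAA was in 4 windows (10.0%), against 5.82% of windows under all listed regions and 11.2% of all windows. The STAT motif TTCNNNGAA was in 1 window (2.5%), against 6.70% of windows under all listed regions, 8.30% of all windows and 10.7% of those under regions stronger with IL-2. None held GTCTAGAC, a palindromic SMAD motif, which only 0.226% of windows under all listed regions held. None of the 6 motifs contains another, and these are matches of letters in a small set of windows. No member overlapped any of 1005 miRNA hairpins.

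The promoter regions ranked as the rule asks, low in the lists. At Cd53 the best peak ranked 81313 and 67113 in cDKO libraries with IL-2 and 66338 in control replicate 1 with IL-2, with no peak in control replicate 2 with IL-2, against 38122 and 48139 in cDKO libraries and 60397 and 44811 in control libraries without IL-2. At Nlrc4 the ranks were 77067 and 70969 in cDKO and 92447 and 46594 in control libraries with IL-2, against 43324 and 43723 in cDKO and 48678 and 86476 in control libraries without IL-2. The Cd53 region was listed by every library without IL-2 and by none with it, so its 2 sides could not overlap. At Nlrc4 control replicate 2 had the better rank with IL-2. Rank 1 is the peak of highest −log10 p, and the cut lies at 65811.

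The regions were narrow and mostly away from gene ends. Of the 2917 regions, 4.53% lay at a gene end, defined as 1 kb or less from the start or stop of a protein-coding gene body (95% exact binomial interval 3.8 to 5.34%), against 9.53% of regions stronger with IL-2 (8.46 to 10.7%), 7.52% of all regions listed in 3 to 5 libraries and 16.4% of all listed regions. Inside a gene body lay 55.5% of them and 57.8% of all listed regions. No protein-coding gene lay within 100 kb of 8.74% of them, against 6.70% of all listed regions. Their median width was 302 bp, against 385 bp for regions stronger with IL-2, 328 bp for regions listed in 3 to 5 libraries and 407 bp for all listed regions. They lay a median of 9.86 kb from the nearest region listed in all 8 libraries, close to the 9.71 kb of regions listed in 3 to 5 libraries. The intervals cover counting error only, and no test was made since neighbouring regions are not replicates. A union region is at least as wide as its widest peak, and width moved with the list length, whose part in these shares was not tested. Chromosomes with at least 100 listed regions held between 2.4% (chromosome 11) and 3.47% (chromosome 18) of their listed regions as members.

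**Figure D1:**
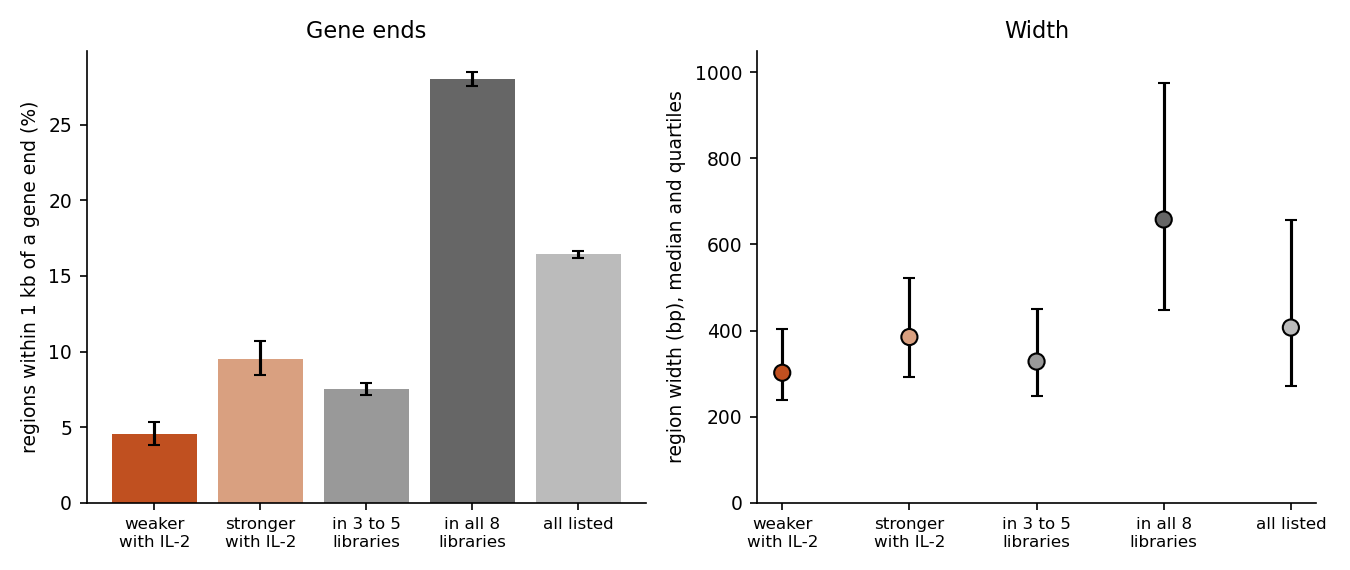
Position and width of regions weaker with IL-2 beside other sets of regions. Left, share at a gene end (%), with 95% exact binomial intervals. Right, union region width (bp), with the point at the median and bars at the quartiles. Regions weaker with IL-2 have the lowest gene-end share of these 5 sets, 4.53%, and the lowest median width, 302 bp.

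Most of these regions were still peaks when IL-2 was added, but further down the list. Equal-number lists with IL-2 held 538 and 580 of them in cDKO and 512 and 321 in control libraries, against 2478 and 2615 in cDKO and 2076 and 2430 in control libraries without IL-2. In the full deposited lists the counts were 2173 and 2669 in cDKO and 2446 and 321 in control libraries with IL-2, against 2824 and 2889 in cDKO and 2911 and 2766 in control libraries without IL-2. Control replicate 2 with IL-2 stands apart because its deposited list ends at the cut, at a −log10 p of 3.25, while the cut fell between 7.97 and 13.5 in the other libraries. At least 2 deposited lists with IL-2 held 2655 of the 2917 regions, 1 list held 231 and none held 31. The regions also lay near the end of the lists without IL-2, where between 74.1% and 82.6% of those listed were in the last 1/3 of the list. Only 12 stood among the first 32905 peaks of at least 3 libraries without IL-2.

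**Figure D2:**
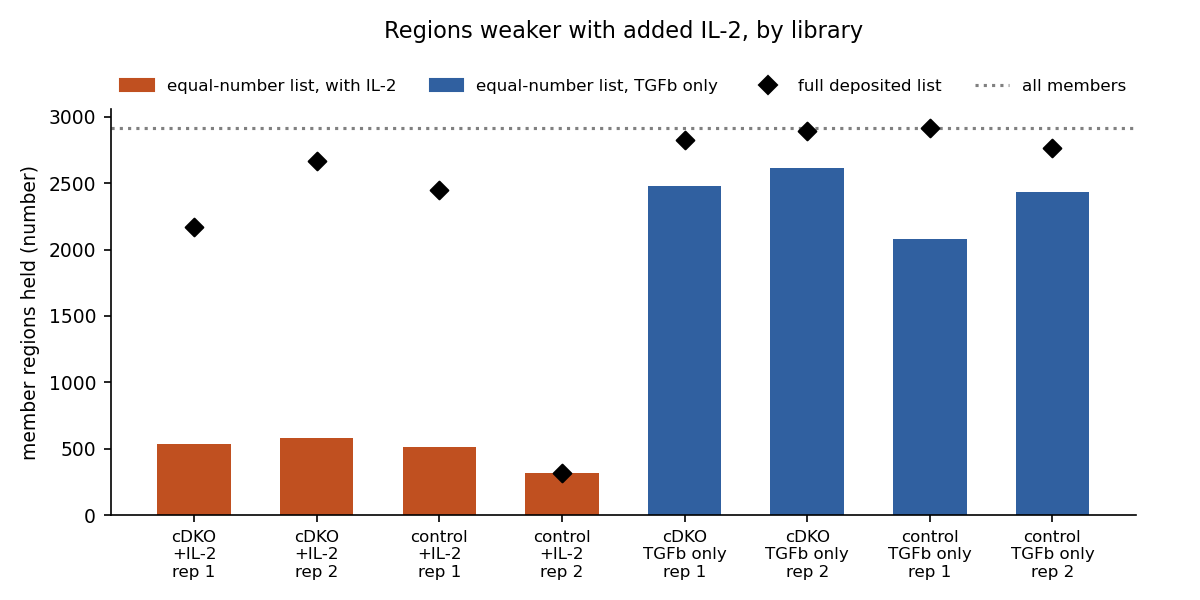
Number of the 2917 regions weaker with IL-2 (dotted line) held by each library, in equal-number lists (bars) and in full deposited lists (diamonds). Bars sit between 321 and 580 in libraries with IL-2 and between 2076 and 2615 in libraries without it, while 3 of 4 deposited lists with IL-2 held at least 2173.

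Complete patterns were rare. All 4 libraries without IL-2 and none with IL-2 listed 220 regions, 0.229% of all listed regions and 7.54% of the members. Another 628 were listed in all 4 without IL-2 and 1 with IL-2, 746 in 3 and none, and 1323 in 3 and 1. Of the 2069 regions that 1 library without IL-2 lacked, 841 were missing from control replicate 1, the library with the longest deposited list (145979 peaks), 487 from control replicate 2, 439 from cDKO replicate 1 and 302 from cDKO replicate 2. The opposite rule, at least 3 libraries with IL-2 and at most 1 without, took 2748 regions (2.87%), a similar number. With deposited lists of full length 6910 regions were weaker and 2718 stronger. Those lists differ in length, and the shortest, of 65811 peaks, is that of control replicate 2 with IL-2. A short list with IL-2 makes the weaker rule easier to meet and the stronger rule harder. Its part in these counts was not tested. The last region inside the threshold was in Nrip1, a nuclear receptor corepressor, with a rank of 65811 in the lowest of its 3 best libraries without IL-2, and the first outside was in Nat9, with 65819. On the IL-2 side, Dmrt1 held a region just inside, with a second-best rank of 65814, and Nf2, a tumour suppressor gene, one just outside, with 65806.

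Whether the IL-2 contrast seen in one genotype also appeared in libraries that had no part in choosing the regions was measured by choosing in one genotype and counting in the other. Both libraries without IL-2 and neither with IL-2 listed 2407 regions in control cells, 2.51% of all listed regions. In cDKO cells 48.8% and 50.0% of these were listed in libraries with IL-2, against 63.1% and 67.6% in libraries without IL-2, a difference of −15.9 percentage points. Of all listed regions the same libraries listed 65.1% and 67.2% with IL-2, against 66.5% and 67.4% without IL-2. The same choice made in cDKO cells took 2820 regions (2.94%). In control cells 24.5% and 24% of these were listed with IL-2, against 36% and 45.8% without IL-2, a difference of −16.6 points. Of all listed regions those libraries listed 66.8% and 66.6% with IL-2, against 66.6% and 67.1% without IL-2, so both arms lay below that share. In both tests the libraries with IL-2 did not overlap those without it, and the exact 2-sided permutation p was 0.33, the smallest that 2 libraries against 2 can give, so this design cannot pass 0.05. With deposited lists of full length the regions chosen in control cells differed by −11.2 points and the libraries overlapped (exact permutation p = 0.667). Regions chosen as stronger with IL-2 moved the opposite way: 2292 chosen in control cells (2.39%) were listed 22.7 points more often with IL-2 in cDKO cells, and 2672 chosen in cDKO cells (2.79%) were listed 21.9 points more often with IL-2 in control cells, each with an exact permutation p of 0.33.

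**Figure D3:**
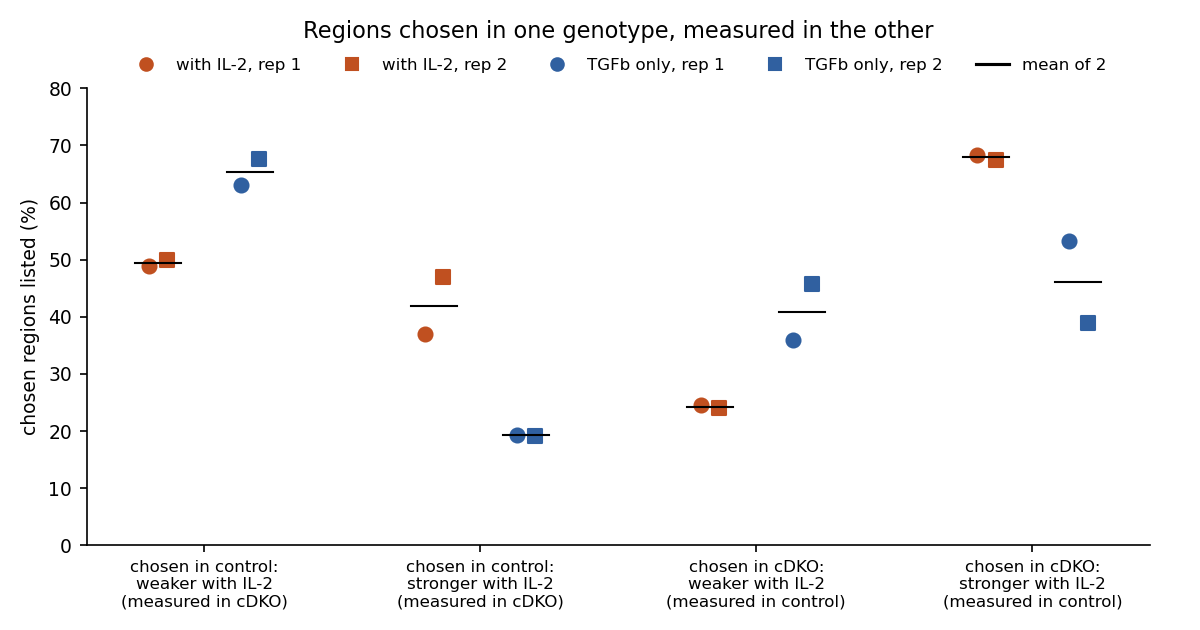
Share of regions chosen in one genotype that each library of the other genotype listed (%), with IL-2 on the left of each pair and TGF-β only on the right. Points are libraries and black lines are means of 2. Regions chosen as weaker with IL-2 were listed less often with IL-2 in the other genotype, by 15.9 and 16.6 points, and those chosen as stronger were listed more often, by 22.7 and 21.9 points.

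The rule treats both genotypes alike, although the listings counted here are those that chose the regions, and cDKO libraries listed more of the 2917 regions than control libraries in each arm. The means were 559 in cDKO and 416.5 in control libraries with IL-2, and 2546.5 in cDKO and 2253 in control libraries without IL-2, a mean difference of 218 regions. Every cDKO library exceeded every control library of its arm. The exact 2-sided permutation test within arms gave p = 0.056, the smallest its 36 relabellings allow. With the same regions and without control replicate 1 without IL-2 the difference was 129.5 (exact permutation p = 0.167), and without control replicate 2 with IL-2 it was 170 (exact permutation p = 0.111). In deposited lists of full length, with the members chosen again from those lists, the difference was 510 and the p was 0.556. List length and the value at the cut also differ between the libraries, and their part was not tested. By the same rule applied to genotype, 592 of the 2917 regions (20.3%) were stronger in cDKO, where 4.62% of all listed regions were, and 319 (10.9%) were weaker in cDKO, where 5.05% of all listed regions were. A region listed in all or in none of the libraries can be called in neither comparison, so a region called in one is more likely to be called in the other, and nothing is read from those 2 shares.

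Among the 220 regions listed in all 4 libraries without IL-2 and in none with it, only 1 had no peak in any deposited list with IL-2. It lay in Rbm33, which encodes an RNA-binding protein (chr5:28416138-28416319). Without IL-2 its peak had a fold over background of 6.64 and 9.91 in cDKO and 7.99 and 6.86 in control libraries, at ranks 55777 and 35631 in cDKO and 60044 and 44764 in control. All 4 peaks were modest, in the range beyond rank 32905. Next in order came regions that 1 deposited list with IL-2 held. One in Itgae, which encodes the CD103 integrin chain that TGF-β induces, had its only peak with IL-2 in cDKO replicate 2, at rank 75063, against 44995 and 42485 in cDKO and 58479 and 52101 in control libraries without IL-2. Others lay in Nlk, a kinase of the MAP kinase group; Dgkk, a diacylglycerol kinase; Atp6v1d, a subunit of the vacuolar proton pump; Ptpn4, a tyrosine phosphatase; and Senp1, a SUMO protease. One was nearest 2210010C04Rik, 46.6 kb away on chromosome 6, and one on chromosome 2 (chr2:48406291-48406803) had no protein-coding gene within 100 kb. In each of these the 4 libraries without IL-2 lay inside the cut at 65811 and the 4 with IL-2 outside it, as their choice requires.

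**Figure D4:**
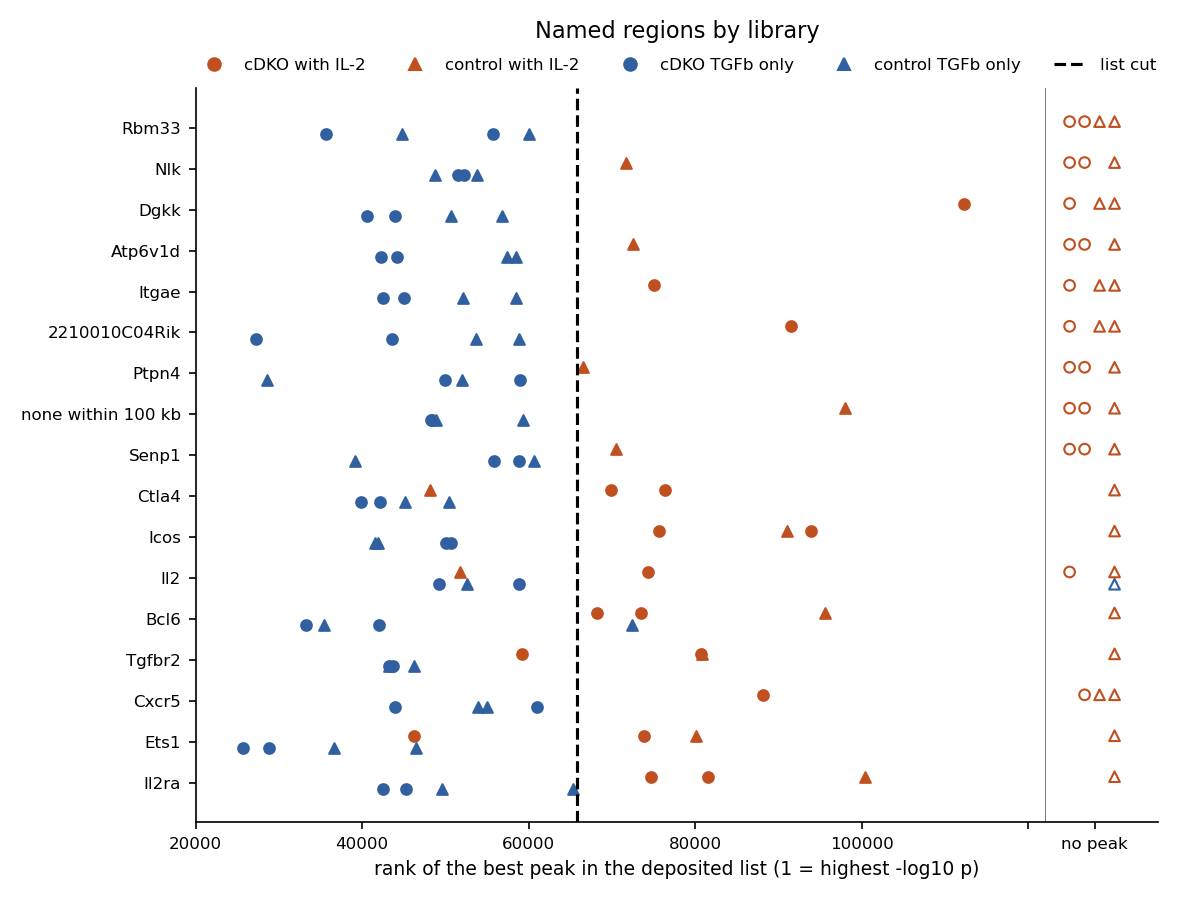
Rank of the best peak in the deposited list (x axis, 1 is the highest −log10 p) for named regions, by library. Open symbols on the right mark a library with no peak in the region, and the dashed line is the cut at 65811. The upper 9, Rbm33 to Senp1, are among the regions held by the fewest lists with IL-2, and the lower 8 were picked for display for their known roles in T cells. Rbm33 has no peak in any list with IL-2, and Ets1 has ranks of 28774 and 25685 in cDKO libraries without IL-2.

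At Il2, Il2ra and Foxp3 a single region or none qualified, too few to compare with the 3.04% of all listed regions. Il2 had 10 listed regions and 1 member, 35.3 kb from the gene (chr3:37161150-37161334). Its rank was 74364 in cDKO replicate 2 and 51763 in control replicate 1 with IL-2, with no peak in the other two, against 58894 and 49288 in cDKO and 52619 in control replicate 1 without IL-2, where control replicate 2 had no peak. Thus 1 library with IL-2 listed it and 1 without did not. Il2ra, which encodes CD25 and is induced by IL-2 through STAT5, had 19 listed regions, of which 1 was a member, 1 was stronger with IL-2 and 9 were listed in all 8 libraries. The member at Il2ra lay inside the gene (chr2:11657724-11658003), with a fold over background of 2.61 and 2.77 in cDKO and 2.32 in control replicate 1 with IL-2 and no peak in control replicate 2, against 4.1 and 3.88 in cDKO and 3.44 and 3.22 in control libraries without IL-2. No library with IL-2 listed it and all 4 without did. Foxp3, the master regulator of regulatory T cells, had 3 listed regions and no member.

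Among the Tet genes, Tet1 had 1 member of 13 listed regions, against 2 regions stronger with IL-2. That member lay inside the gene (chr10:62840769-62840997) and ranked 80959 and 79427 in cDKO libraries with IL-2, with no peak in control libraries with IL-2, against 51506 in cDKO replicate 2 and 55846 and 64827 in control libraries without IL-2, with no peak in cDKO replicate 1 without IL-2. Tet2 had 18 listed regions, none of them a member and 2 stronger with IL-2. Tet3 had 17 listed regions, none a member and 1 stronger with IL-2. Such counts are too small to compare with the shares of all listed regions, 3.04% weaker and 2.87% stronger. Whether the deleted exons of Tet1 and Tet3 overlap any region was not analysed here.

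Genes of T cell identity and signalling held these regions at about the general rate. The 16 gene lists together had 3616 listed regions, of which 104 were members (2.88%), against 3.04% of all listed regions, and the median list had 2.68%. The Regulatory T cell list had 9 of 295 regions (3.05%), in Ctla4, Icos, Ikzf4, Il2ra, Itgae, Nrp1, Nt5e and Tnfrsf9. Ctla4 encodes an inhibitory receptor, and a region inside it (chr1:60911661-60911872) ranked 69916 and 76378 in cDKO and 48149 in control replicate 1 with IL-2, with no peak in control replicate 2, against 42202 and 39857 in cDKO and 50422 and 45191 in control libraries without IL-2. Icos encodes a co-stimulatory receptor, and a region 16.5 kb from it had a fold over background of 4.92 and 4.74 in cDKO and 4.82 in control replicate 1 with IL-2, against 7.98 and 8.36 in cDKO and 11.3 and 8.15 in control libraries without IL-2. The Icos region was listed by every library without IL-2 and by none with it, so its groups could not overlap in rank. At Ctla4 control replicate 1 with IL-2 ranked among the libraries without it. At Icos and at the regions below with printed ranks, control replicate 2 with IL-2 had no peak where no value is given for it.

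Genes of the cytokine pathways themselves gave similar shares. The IL-2 and STAT5 signalling list had 9 members of 354 regions (2.54%). Of its regions 17 (4.80%) were stronger with IL-2, against 2.87% of all listed regions and 3.24% of the 16 lists together. That share was not particular to this list. It was higher for Survival and cell cycle genes and for Chemokine receptors and adhesion genes (4.89% for the latter). Th2 genes had the lowest share of the 16 lists, 2.13%. Whether the lists differ in this share was not tested. Members lay near Myc, Il2rb and Bcl2, a survival gene, among others. The region 3.19 kb from Il2rb was listed in 3 libraries without IL-2, at 51470 in cDKO replicate 1 and 51418 and 49291 in control, and in 1 with IL-2, at 51435 in cDKO replicate 1. TGF-beta and SMAD genes had 9 of 367 regions (2.45%), in 9 genes that included the receptor genes Tgfbr1 and Tgfbr2, the mediators Smad3 and Smad4 and the inhibitors Smad7, Smurf2 and Tgif1. A region inside Tgfbr2 ranked 80747 and 59224 in cDKO and 80784 in control replicate 1 with IL-2, with no peak in control replicate 2, against 43661 and 43230 in cDKO and 46286 and 43203 in control libraries without IL-2.

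Genes known to be repressed by IL-2 had 14 of 326 regions stronger with IL-2 (4.29%), against 2.87% of all listed regions and 3.24% of the 16 lists together. Other lists had higher shares, such as Chemokine receptors and adhesion genes with 4.89%. They had 8 members (2.45%), against 3.04% of all listed regions. One lay 33.2 kb from Bcl6, the master regulator of follicular helper T cells, and ranked 68176 and 73548 in cDKO and 95558 in control replicate 1 with IL-2, against 33290 and 42047 in cDKO and 35389 and 72433 in control libraries without IL-2. Control replicate 2 without IL-2 thus ranked like the cells given IL-2. Near Cxcr5 (28.8 kb away), which encodes the chemokine receptor of follicular helper cells, a region had a peak in only 1 deposited list with IL-2, at 88116 in cDKO replicate 1, against 43905 and 61033 in cDKO and 54977 and 53878 in control libraries without IL-2. The region inside Il6ra, which encodes the receptor for IL-6, was listed in no library with IL-2. Without IL-2 it was listed in cDKO libraries at 55242 and 59746 and in control replicate 2 at 56363. In control replicate 1 it ranked 84556 without IL-2 and 81170 with IL-2, the reverse order. The Tfh list, which shares Bcl6 and Cxcr5 with the list of genes repressed by IL-2, had 7 of 184 regions (3.8%).

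Other helper lineages had 3 to 7 members each. Th1 and cytotoxic genes had 4 of 200 regions (2.00%), among them regions in or near Stat4, Il18r1 and Tbx21, the last of which encodes T-bet. Th2 genes had 3 of 94 (3.19%), in Gfi1 and Il1rl1. Th17 genes had 7 of 261 (2.68%), of which 3 were assigned to Rora, 2 to Rbpj and 1 each to Il6ra and Il1r1. The exact binomial intervals of these lists overlap one another and include 3.04%.

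The Naive and memory list had the most members of any list, 19 of 513 regions (3.70%), in 8 genes. Foxp1 and Bach2, which encode factors of T cell quiescence, held 5 and 3, and Ets1, a factor of lymphocyte development, held 4. Near Ets1, 15.6 kb away, a region ranked 73882 and 46210 in cDKO and 80071 in control replicate 1 with IL-2, with no peak in control replicate 2, against 28774 and 25685 in cDKO and 36673 and 46427 in control libraries without IL-2. Those were among the best ranks of any named region. Satb1, a chromatin organiser of T cells, and Id3, an inhibitor of E proteins, held 2 each. These genes have many regions, and the list's share had an exact binomial interval of 2.24 to 5.72%, which includes 3.04%.

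Receptor, adhesion and metabolic genes were alike in scale. Co-stimulation and inhibitory receptors had 10 of 252 regions (3.97%), 3 of them near Cd28, the receptor of the co-stimulation used in the culture. One region 40.2 kb from Cd28 ranked 61985 and 93903 in cDKO and 91089 in control replicate 1 with IL-2, against 36099 and 46548 in cDKO and 55899 and 54793 in control libraries without IL-2. TCR proximal signalling genes had 10 of 467 (2.14%) and TCR-induced activation genes 7 of 373 (1.88%), the lowest share of the 16 lists. Chemokine receptors and adhesion genes had 8 of 225 (3.56%), and one inside Selplg, the gene for a selectin ligand, was listed at 62862 in cDKO replicate 2 with IL-2 and in all 4 libraries without IL-2. Glucose and amino acid metabolism genes had 7 of 203 (3.45%), Survival and cell cycle genes 5 of 240 (2.08%) and DNA methylation genes 4 of 149 (2.68%). The DNA methylation members were in or near Dnmt3a, which encodes a de novo DNA methyltransferase, Mbd2, Cxxc5 and Tet1. The region in Dnmt3a was listed in cDKO replicate 1 at 50112 and in control libraries at 54389 and 56624, all without IL-2. In cDKO replicate 2 without IL-2 it ranked 88499. That is worse than its ranks with IL-2, 73645 and 76920 in cDKO and 79549 in control replicate 1.

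**Figure D5:**
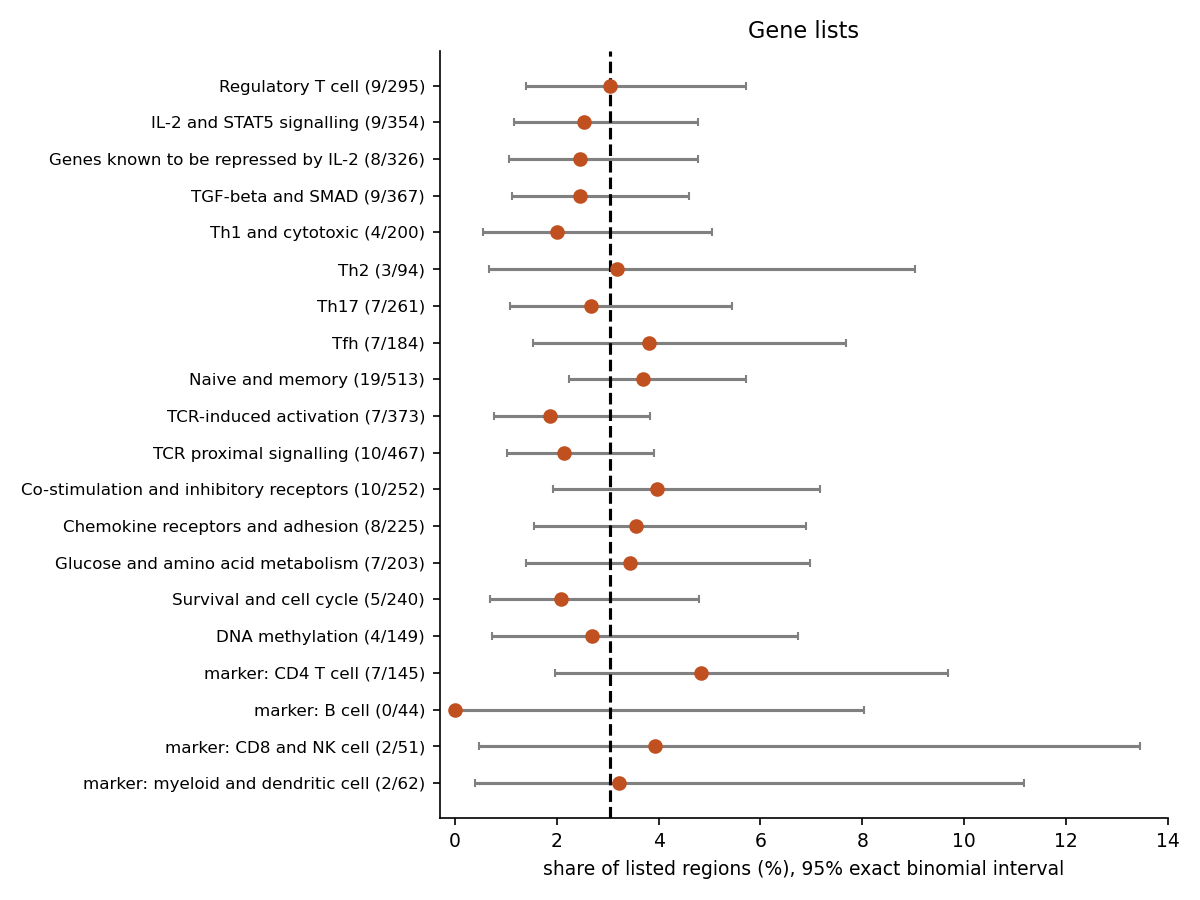
Share of the listed regions of each gene list that were weaker with IL-2 (%), with 95% exact binomial intervals that cover counting error only. Brackets give members and listed regions, and the dashed line is the 3.04% of all listed regions. The erythroid list, with 17 listed regions, is not drawn. Every interval drawn includes the dashed line.

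Marker genes of other cell types were listed in similar numbers in both arms, counting regions inside or within 1 kb of the gene. All 10 CD4 T cell markers had a listed region in every library, with 42 to 45 regions in libraries with IL-2 and 38 to 46 in libraries without IL-2. B cell markers had 18 to 22 regions with IL-2 and 19 to 25 without, and myeloid and dendritic cell markers 31 to 34 with IL-2 and 30 to 33 without. CD8 and NK cell markers had 7 to 11 regions with IL-2 and 8 to 9 without, and erythroid markers 4 to 7 with IL-2 and 4 to 5 without. Of the B cell markers 5 to 7 of 10 had one, of the CD8 and NK cell markers 4 to 7 of 10, of the myeloid and dendritic cell markers 7 to 9 of 12 and of the erythroid markers 4 to 6 of 10. No library listed a region at Ms4a1, Klrk1, Ncr1, Klra1, Lyz2, S100a8, S100a9, Hba-a1, Hba-a2, Hbb-bs or Alas2. By assignment within 100 kb, the members included 7 of 145 regions of the CD4 T cell markers (4.83%), 2 of 51 of the CD8 and NK cell markers and 2 of 62 of the myeloid and dendritic cell markers, with none among 44 B cell and 17 erythroid marker regions. An open region is not expression, and in bulk samples fewer cells of a type and a less open site per cell cannot be told apart.

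The members were spread thinly over genes. They were assigned to 2171 of the 16898 genes with any listed region, of which 1804 had 1, 281 had 2 and 86 had 3 or more. A region stronger with IL-2 was assigned to 519 of these genes, which is 23.9% of the genes with a member and 24.7% of the genes with a stronger region, against 12.4% of all genes with a listed region that had a stronger region and 12.8% that had a member. Genes with many regions raise both counts, and the overlap was not tested. Itga9, which encodes an integrin alpha chain, had 7 members among 30 listed regions (23.3%), all inside its 294.3 kb body, and 1 stronger region. Of all listed regions 3.04% were members. The member of Itga9 listed in all 4 libraries without IL-2 and none with it ranked 95613 and 113713 in cDKO and 104552 in control replicate 1 with IL-2, against 47795 and 40669 in cDKO and 61587 and 55829 in control libraries without IL-2. Lpp, a gene for a focal adhesion protein, had 7 among 92 regions (7.61%), and Bbs9, a gene for a ciliary protein, 5 among 37 (13.5%). Foxp1 had 5 among 98 (5.10%) and Rabgap1l, a gene for a GTPase-activating protein, 5 among 44 (11.4%). These genes were named for having the most members, which favours high shares, so nothing is read from their shares. Long genes have more regions, and a count per gene was not tested.

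The gene 2210010C04Rik had 5 members among 26 listed regions, none inside its 5.2 kb body, and lies within the T cell receptor beta locus. Antigen receptor loci were therefore counted, a choice made after these values were seen. Between the outermost segments of the T cell receptor beta locus on chromosome 6, 9 of 64 listed regions were members (14.1%), against 3.04% of all listed regions, and 2 were stronger with IL-2. The libraries listed 34 and 34 regions of the locus in cDKO and 35 and 35 in control with IL-2, against 42 and 44 in cDKO and 36 and 43 in control libraries without IL-2. Those counts include the members, which the IL-2 contrast chose. Without the members the libraries listed 34 and 32 regions in cDKO and 33 and 35 in control with IL-2. Without IL-2 they listed 36 and 36 in cDKO and 29 and 35 in control, and the arms overlapped. Leaving out members removes regions chosen as weaker and keeps those stronger with IL-2, so nothing is read from this overlap. The T cell receptor alpha and delta locus had 12 members of 230 (5.22%), the immunoglobulin heavy chain locus 10 of 164 (6.10%), and the T cell receptor gamma and immunoglobulin kappa loci none of 15 each.

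Of the 31 members in these loci, 9 overlapped a gene segment. They were Trav14d-3-dv8, Trav16 and Trav3-4 of the alpha chain, Trbv11 and Trbv20 of the beta chain, and Ighv14-1, Ighv1-10, Ighv8-7 and Ighv8-11 of the immunoglobulin heavy chain. Overlap with a segment was not counted for all 488 listed regions of these loci, so nothing is read from the 9. At Trbv11 (chr6:41106691-41106960) the ranks were 71166 and 67838 in cDKO and 69450 in control replicate 1 with IL-2, with no peak in control replicate 2, against 67629 and 56001 in cDKO and 54702 and 47371 in control libraries without IL-2. Ighv8-11 ranked 92548 and 85379 in cDKO and 66822 and 52261 in control libraries with IL-2, against 64753 and 46643 in cDKO and 48339 and 35788 in control libraries without IL-2. Some variable segments resemble one another, and how reads were placed among them was not tested, nor was rearrangement, in which T cells lose part of a receptor locus.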

How the data were processed

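ATAC-seq peak lists of 8 libraries were used as the authors deposited them, 1 narrowPeak list per library, with 65811 to 145979 peaks. The submitters' processing notes name MACS2 2.2.7.1, Bowtie2 2.4.1 and Trimmomatic 0.39, also SAMtools 1.3.1, Picard, HOMER 4.11.1, ChIPseeker 1.18.0 and DiffBind 2.10.0, with build GRCm38 (mm10), but not what each did. How reads were shifted, deduplicated and called is not stated there. The deposited columns used were the fold over background (a ratio) and the −log10 p-value; the deposited −log10 q-value shows a largest q of 0.05 in every list. They describe or rank peaks within a list. Read depth is unknown, so no interval that needs it is given.

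Libraries were grouped by the labels' titles. Where the labels' characteristics place the genotype in another field, the titles were followed. Replicates are called biological in the design text, but which animals gave them is not stated, so a p-value covers only the variation among these libraries, which may be technical. The shortest list set the equal number. A region was assigned to the smallest protein-coding RefSeq gene body (GRCm38.p6) holding its midpoint, or else to the nearest within 100 kb. The table has no exons or strand, so exonic, intronic and untranslated positions were not analysed here. Of 320 genes in the 16 gene lists and 5 marker lists, 319 matched. Promoter sequences are from RefSeq (GRCm38.p6); no genome was used, so regions off promoter windows have no sequence here.

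Members and gene lists were chosen with earlier results of these data known, so no count over them is independent evidence. Named genes were the 10 regions of 4 against 0 held by the fewest deposited lists with IL-2 (then by lowest worst rank without IL-2), up to 4 genes per list by that rank, up to 6 genes with most members, Il2, Il2ra, Foxp3 and the Tet genes, and promoter members of best rank. Others are said to be chosen after their values were seen or are further members of a list named to complete its count. Some regions that this rule takes are not reported here. Tests were exact permutation tests over libraries. Alternatives were list length, ranking by fold, a cover of 50%, summit windows of 100 bp to each side, the listing threshold, gene distance, a replicate block and leaving out each library. Python 3.11.15, numpy 2.4.6, pandas 2.3.3, SciPy 1.17.1 and matplotlib 3.10.9 were used, and the steps were tested on simulated lists.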

Additional observations from a re-analysis of the deposited data

How the results depend on the processing

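The number of regions weaker with IL-2, and which regions they were, depended on the cut. It was 1470 with lists of 32905 peaks (12 shared with the 2917), 6910 with full deposited lists (262 shared, 8.98% of the 2917) and 220 with the stricter threshold of 4 against 0. Ranking by fold gave 3361 (1434 shared), a cover of 50% gave 4197 (2202 shared) and summit windows gave 3321. The opposite direction gave 1417 with lists of 32905 peaks and 2718 with deposited lists, against 2748 in the main analysis. Leaving out 1 library, with the threshold relaxed accordingly, gave 4217 (without control replicate 2 with IL-2) to 6040 (without control replicate 1 without IL-2). Each such set held all 2917, which the relaxed threshold makes certain, so this is no measure of stability. The gene-end share was 5.58% with lists of 32905 peaks, 18% within 5 kb (29.9% of all listed regions) and 4.43 to 5.44% without 1 library. The median width was 438 bp with lists of 32905 peaks, 228 bp with deposited lists and 284 to 328 bp without 1 library. Members in the 16 lists were 46, 220 and 56 with lists of 32905 peaks, with deposited lists and with a flank of 10 kb, and 152 to 215 without 1 library. The cause of these moves was not tested.

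The contrast in the other genotype kept its direction under every alternative run. For regions chosen in control cells and measured in deposited lists it was −11.2 points, with overlapping libraries (exact permutation p = 0.667). The contrast ranged between −8.74 and −18.3 points for regions chosen in control cells. It was −8.74 when control replicate 1 with IL-2 had no part in the choice. It was −9.52 when control replicate 2 without IL-2 had no part. For regions chosen in cDKO cells it ranged between −10.1 and −31.3 points. The −10.1 and −11.4 came without cDKO replicates 2 and 1 without IL-2 in the choice. The −31.3 came from deposited lists, of which that of control replicate 2 with IL-2 is the shortest and ends at the equal-number cut. The part of this short list in the −31.3 points was not tested. With libraries paired by number as a replicate block the differences were the same −15.9 and −16.6 points, each with an exact p of 0.5, and the 218 regions of the genotype difference had p = 0.125, each the smallest that block allows. The labels do not say that a number marks a shared animal or day. The genotype difference was 151 with lists of 32905 peaks (p = 0.056, exact permutation) and 510 with deposited lists (p = 0.556, exact permutation). Leaving out 1 library with the members kept, an alternative chosen after seeing the data, gave 129.5 (without control replicate 1 without IL-2) to 306.5 (without control replicate 2 without IL-2), with exact permutation p between 0.056 and 0.222. Unknown read depth and 2 libraries per group limit all of these.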
